A study of Mus musculus with 16 samples.

Results

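Skin treated topically with tofacitinib was compared with skin treated topically with ruxolitinib, on 5 of the 16 arrays of the study. The arrays were chosen by title: 3 of tofacitinib at day 5 (mice 7, 8 and 9) and 2 of ruxolitinib at day 5 (mice 4 and 6). All animals were female C57/B6 mice, an inbred strain, aged 8.5 weeks at the first biopsy of dorsal skin (day 0). The labels name no allele or transgene. The titles spell the strain C57/B7. Drug or vehicle was applied each day for 4 days, and the treated skin was biopsied again, as whole skin, at day 5. The other 11 arrays, 9 of untreated skin at day 0 (mice 1 to 9) and 2 of skin given the solvent dimethyl sulfoxide alone at day 5 (mice 2 and 3), were used for the spread and as side values. Every day-5 mouse, vehicle mice included, had been biopsied at day 0. Neither drug's dose is given in the labels, so whether the doses were matched is unknown. For mouse 7 the labels conflict: the free-text description of its day-5 array says ruxolitinib, whereas the other fields say tofacitinib, which was followed here.

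Both drugs block Janus kinases (JAKs), enzymes bound to cytokine receptors that phosphorylate STAT transcription factors. STATs then switch on target genes, among them Cish and the Socs genes, whose proteins damp the same receptors. The drugs share a pyrrolopyrimidine ring, which carries a pyrazole in ruxolitinib and a piperidine in tofacitinib. In skin these kinases carry signals of interferons and of interleukins that act on keratinocytes, T cells and hair follicles. The arrays (Affymetrix mouse arrays) measure a transcript with a probe set, a group of short probes, and many genes have several probe sets placed at different stretches of their transcripts. Values are log2 expression values, so a difference of 1 is a change of 2-fold, and all differences below are tofacitinib minus ruxolitinib unless another is named.

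Of 24548 probe sets kept (log2 value above 4 in at least 2 arrays), 73 were lower after tofacitinib than after ruxolitinib (0.297% of those tested) and 0 were higher (0%), at an adjusted p under 0.05 in limma with Benjamini-Hochberg adjustment. At an unadjusted p under 0.05 there were 1758 (7.16%), of which 1038 were lower (4.23%) and 720 higher (2.93%). The 73 differences ran from -0.90 to -3.69 with a median of -1.88, a median 3.68-fold higher value after ruxolitinib. Of the 73, 59 probe sets named 57 genes, among them the transcription factor gene Rel, the translation factor gene Eif4h and the DNA ligase gene Lig3, and 14 had no single gene symbol. When each gene was represented by its brightest kept probe set, 3 of 12086 genes were lower after tofacitinib (0.0248%) and 0 higher (0%), and 685 had an unadjusted p under 0.05 (5.67%), 330 lower (2.73%) and 355 higher (2.94%).

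These calls rest on the spread of all 16 arrays. With the mouse as a fixed block, which compares each mouse's own change from day 0 between the drugs, 0 probe sets and 0 genes passed in limma (3147 probe sets and 1492 genes at an unadjusted p under 0.05). The 73 differences had the same sign there, from -0.99 to -4.10 with a median of -2.08. Fitted on the 7 day-5 arrays alone, 0 probe sets passed (1114 at an unadjusted p under 0.05) and 1 gene, Rel. On the 5 drug arrays alone, 0 probe sets and 0 genes passed (1043 and 369 at an unadjusted p under 0.05). Leaving out an array moved the count of lower probe sets to 34 without ruxolitinib mouse 4, 40 without ruxolitinib mouse 6, 122 without tofacitinib mouse 7, 38 without tofacitinib mouse 8 and 47 without tofacitinib mouse 9. Of the 73, 22 passed in each of these 5 fits, among them the probe sets of Rel, Eif4h, Lig3, Cspp1, Eif6 and Ptpn2. With mouse 7 grouped as ruxolitinib, as its description reads, 19 probe sets were lower and 1 of these was among the 73. The fits that left out an array used the probe sets kept on all 16 arrays. The probe sets of Eif4h, Lig3, Cspp1 and Ptpn2 were kept only with the ruxolitinib arrays. They thus had to differ to be tested, and passing in each fit is no separate support for them. The replicates are separate mice, and the labels give no batch or scan date.

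In each of the 73 probe sets both ruxolitinib arrays lay above all 3 tofacitinib arrays, a separation that 9.34% of all kept probe sets showed, and 8.97% showed the reverse. In 69 of the 73 the ruxolitinib arrays also lay above all 14 other arrays, against 2.35% of all kept probe sets. The 3 tofacitinib arrays lay above all 13 others in 0.277% of kept probe sets. This is harder to reach with 3 arrays than with 2, so these shares do not compare the drugs. The mean of the 73 was 6.98 and 6.77 in the ruxolitinib arrays. It was 5.13, 4.80 and 4.80 in the tofacitinib arrays, 5.08 and 4.95 in the vehicle arrays, and between 4.60 and 4.95 at day 0. The ruxolitinib arrays thus stood apart on these probe sets, while the tofacitinib arrays overlapped the vehicle arrays. Against vehicle, the median difference of the 73 was 1.76 for ruxolitinib and -0.09 for tofacitinib, and the vehicle mean lay nearer to tofacitinib in 69 and nearer to ruxolitinib in 4. Both of these comparisons share the same 2 vehicle arrays. In limma at an adjusted p under 0.05, 15 probe sets differed between tofacitinib and vehicle (0.0611%) and 236 between ruxolitinib and vehicle (0.961%). Against the 9 day-0 arrays the counts were 11901 for tofacitinib (48.5%) and 8168 for ruxolitinib (33.3%). These day-0 counts take in any change after the first biopsy, which vehicle mice also had. They rest on 3 tofacitinib and 2 ruxolitinib arrays, so they do not rank the drugs. The 73 were chosen for their difference between the drugs, so these values describe them and test nothing.

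**Figure D1:**
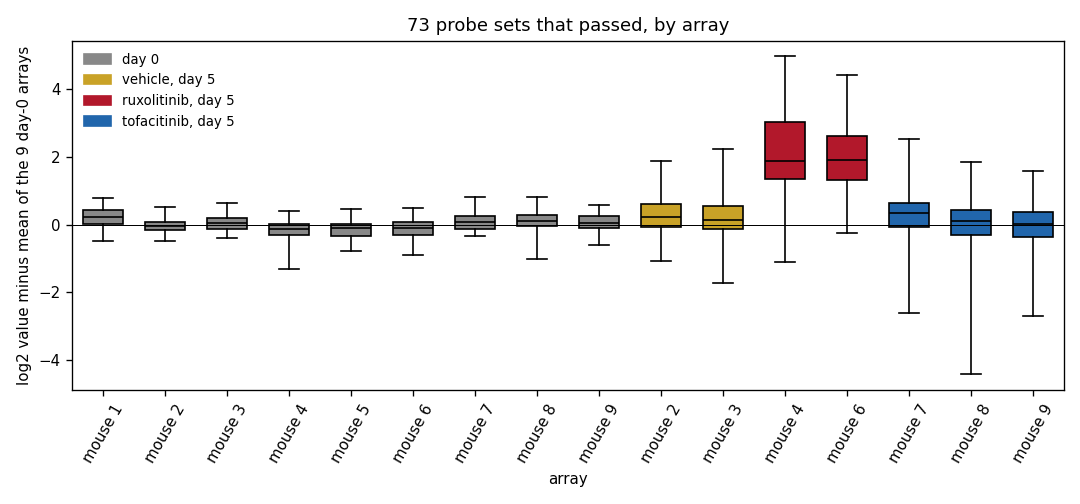
Log2 value minus the mean of the 9 day-0 arrays, for the 73 probe sets lower after tofacitinib, by array; boxes show the quartiles and median, whiskers the full range. Both ruxolitinib arrays sit above the rest, and the vehicle and tofacitinib arrays sit near 0.

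In the arrays without ruxolitinib the probe sets that passed were dim, which the selection for higher ruxolitinib values and the level filter fix in part. Their median level over those 14 arrays was 4.22, against 7.42 for all kept probe sets. Of the 73, 17 lay at or under 4 in every one of those arrays and were kept only through the ruxolitinib arrays. Others, the passing probe sets of Ptpn2 and Smu1 among them, exceeded 4 in only 1 of those arrays. They too needed the ruxolitinib arrays to be kept. For scale, the 27 control probe sets with no target in mouse RNA lay at 2.43 or lower, with 1.70 as their median. Of the 73, 94.5% carried the plain suffix _at, against 74.0% of all kept probe sets. A RefSeq target sequence, the best-annotated kind, stood behind 5.08% of those that passed and had 1 symbol, against 17.3% of kept probe sets.

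**Figure D2:**
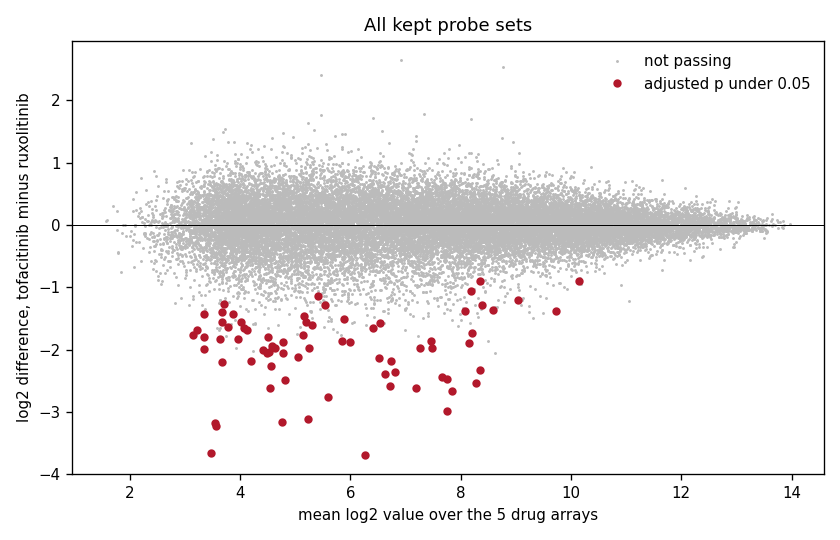
Difference in log2 value, tofacitinib minus ruxolitinib, against the mean log2 value over the 5 drug arrays, for all 24548 kept probe sets; the 73 that passed are in red. All 73 lie below 0, from -0.90 to -3.69.

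The probe set with the largest difference, of all 73, was that of Rel (Entrez gene 19696), which encodes c-Rel, an NF-kappaB subunit active in lymphocytes. Its log2 value was 8.53 and 8.37 in the ruxolitinib arrays and 5.37, 4.24 and 4.80 in the tofacitinib arrays. The vehicle arrays stood at 4.39 and 4.19, and the day-0 arrays between 3.53 and 4.42. The ruxolitinib arrays were higher than every other array, and the difference was -3.69 ± 0.30 (SE, 3 against 2 arrays, limma adjusted p = 3.76e-05), a 12.9-fold higher value after ruxolitinib. Rel had only this probe set among those kept, so no other kept probe set measures it. As the samples are whole skin, more cells that express Rel and more Rel RNA per cell cannot be told apart, which holds for every gene here. T and NK cell markers, a class of cells that expresses Rel, had a mean level of 3.39 and 3.50 in the ruxolitinib arrays. In the tofacitinib arrays it was 3.98, 3.33 and 3.46, so the ranges overlapped. Only 13 of the 29 markers were tested, and these means lay under 4, where a difference is hard to see. Whether the number of such cells differed was not tested.

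Eif4h, a helper of the translation initiation helicase, showed how a single probe set can differ within a gene. Probe set 1442942_at stood at 6.58 and 4.77 in the ruxolitinib arrays and at 2.18, 2.03 and 1.78 in the tofacitinib arrays. The vehicle arrays (1.67 and 1.52) and the day-0 arrays (1.47 to 1.86) also lay under the highest control value, so the size of the difference (-3.67 ± 0.34, SE, limma adjusted p = 7.24e-05) is uncertain. The other 3 kept probe sets of Eif4h differed by 0.07, 0.08 and 0.15, at levels of 10.66 to 12.17 after ruxolitinib. Against these, the first probe set was lower by -3.77, given as a description.

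The same pattern held for Lig3, a DNA ligase of base excision repair, at 5.58 and 5.42 after ruxolitinib and 2.57, 1.83 and 2.45 after tofacitinib in probe set 1453986_at. The difference was -3.22 ± 0.29 (SE, limma adjusted p = 5.86e-05), and the other 3 probe sets differed by -0.05, -0.02 and 0.14. In Cspp1, a centrosome and spindle protein, probe set 1420340_at stood at 5.04 and 5.88 after ruxolitinib and at 2.70, 2.08 and 2.04 after tofacitinib (-3.18 ± 0.25, SE, limma adjusted p = 3.76e-05). Its other 3 probe sets differed by -0.24, 0.03 and 0.11. In both genes the ruxolitinib arrays were the only ones above 2.76. Some of the other arrays of both lay at or under 2.43, so the sizes are uncertain. The named probe sets of Eif4h, Lig3 and Cspp1 reached the level filter only through the ruxolitinib arrays, so they had to differ in order to be tested. Without the filter 63 probe sets were lower, 51 of them among the 73, and these 3 still passed. Eif6, which keeps ribosomal subunits apart, had a probe set at 9.71 and 9.34 after ruxolitinib and 7.48, 5.91 and 6.31 after tofacitinib, a difference of -2.995 ± 0.36 (SE, limma adjusted p = 0.000766). The brighter probe set of Eif6 differed by 0.60 in the other direction, with an interval from 0.02 to 1.18.

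Among the next largest with a gene symbol were Kdm7a, a histone demethylase (-2.66 ± 0.33, SE), Cdk13, a kinase of transcribing RNA polymerase (-2.54 ± 0.36), and Smu1, a splicing factor (-2.50 ± 0.24), with limma adjusted p of 0.00106, 0.00357 and 0.000139. Avl9, a protein of late secretory transport, differed by -2.76 ± 0.46 (limma adjusted p = 0.0123). The probe set of Smu1 reached the level filter only with the ruxolitinib arrays. Kdm7a stood at 9.57 and 9.28 after ruxolitinib and 7.49, 6.65 and 6.19 after tofacitinib, while its other 3 probe sets differed by -0.16, -0.03 and 0.05. Genes outside the naming rule, chosen after their values were seen, include the kinase pair Tlk1 (-1.84) and Tlk2 (-2.37 and -1.57 in separate probe sets), the kinases Map3k1 (-1.56), Map3k2 (-1.69) and Cdk12 (-1.77), and the chromatin remodellers Chd1 (-1.06) and Chd8 (-1.14). Psma6, a proteasome subunit, was the other gene with 2 probe sets that passed (-1.39 and -1.77), and its brightest differed by -0.05. The brightest probe sets differed by -0.22 in Tlk1, -0.07 in Tlk2, -0.04 in Map3k1 and -0.17 in Map3k2. They differed by -0.10 in Cdk12, -0.37 in Chd1 and 0.07 in Chd8. The probe sets that passed in Tlk1, Map3k1, Map3k2 and Cdk12 lay under 4 in every array without ruxolitinib. Those 4 genes' probe sets were thus tested only because of the ruxolitinib arrays.

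**Figure D3:**
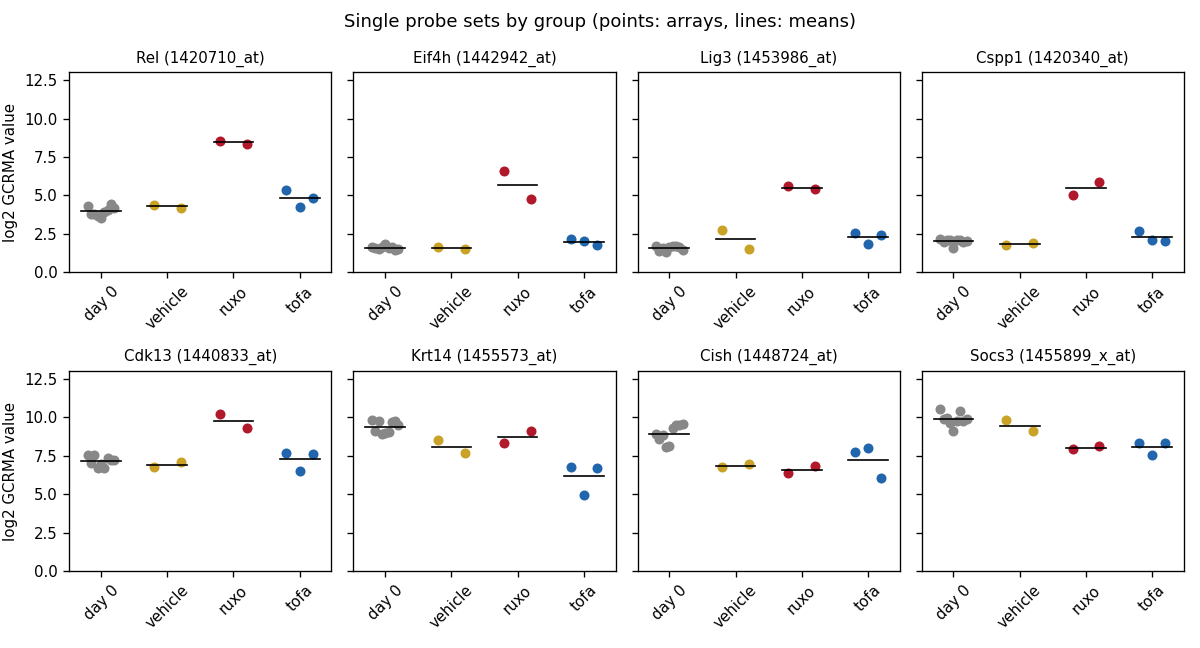
Log2 value in every array for 8 probe sets, by group; points are arrays and lines are group means. In Rel, Eif4h, Lig3, Cspp1 and Cdk13 the 2 ruxolitinib arrays stand above all others, in Krt14 the tofacitinib arrays stand below all others, and in Cish and Socs3 the drug groups overlap.

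Krt14, the keratin of basal keratinocytes (Entrez gene 16664), followed another order. Probe set 1455573_at stood at 8.30 and 9.14 after ruxolitinib and at 6.80, 4.98 and 6.70 after tofacitinib. Here the vehicle arrays (8.52 and 7.68) and the day-0 arrays (8.90 to 9.80) were also above every tofacitinib array, and 1 vehicle array lay below both ruxolitinib arrays. The difference was -2.62 ± 0.48 (SE, limma adjusted p = 0.0329). The bright probe sets of Krt14 differed by 0.12 (95% interval -0.24 to 0.48) and -0.04 (-0.33 to 0.26) at levels of 12.02 and 12.77 after ruxolitinib, and the first was lower than these by -2.66. The partner keratin Krt5 differed by -0.04 ± 0.14 (SE) in the gene fit.

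Of the 57 genes with a probe set that passed, 1 (Rel) had a single kept probe set, 3 were gene-wide and 53 were discordant. Gene-wide means that all other kept probe sets of the gene had the same sign and lay within 1 log2 unit; with a limit of 0.5, 1 gene was gene-wide and 55 were discordant. The 3 were Etv6, a transcriptional repressor (-1.40, other -0.41), Ptar1, a prenyltransferase subunit (-1.56, other -1.05), and Gpatch8, an RNA-binding protein (-0.90, others -0.58 and -0.62). The other probe set of Etv6 had a 95% interval from -1.01 to 0.19, which includes 0. Its probe set that passed reached the level filter only with the ruxolitinib arrays. All remaining genes with several kept probe sets were called discordant, even where another probe set was also lower. In Tacc3 (-1.88) the others differed by -1.55 and -0.72, and in Mbtps1 (-1.84) by -1.97 and -0.06. In 52 of the 56 genes with several kept probe sets the one that passed was not the brightest. Among all genes, 5295 had several kept, with 14193 probe sets, so most such probe sets are not the brightest anyway. The selection for higher ruxolitinib values and the level filter also fix this count in part. The brightest probe sets of these 52 differed by a median of -0.07, from -1.05 to 0.60, and in 46 the 95% interval lay within 1 of 0. All 130 other kept probe sets of these genes had a median difference of -0.10, and 98 lay within 0.5 of 0.

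**Figure D4:**
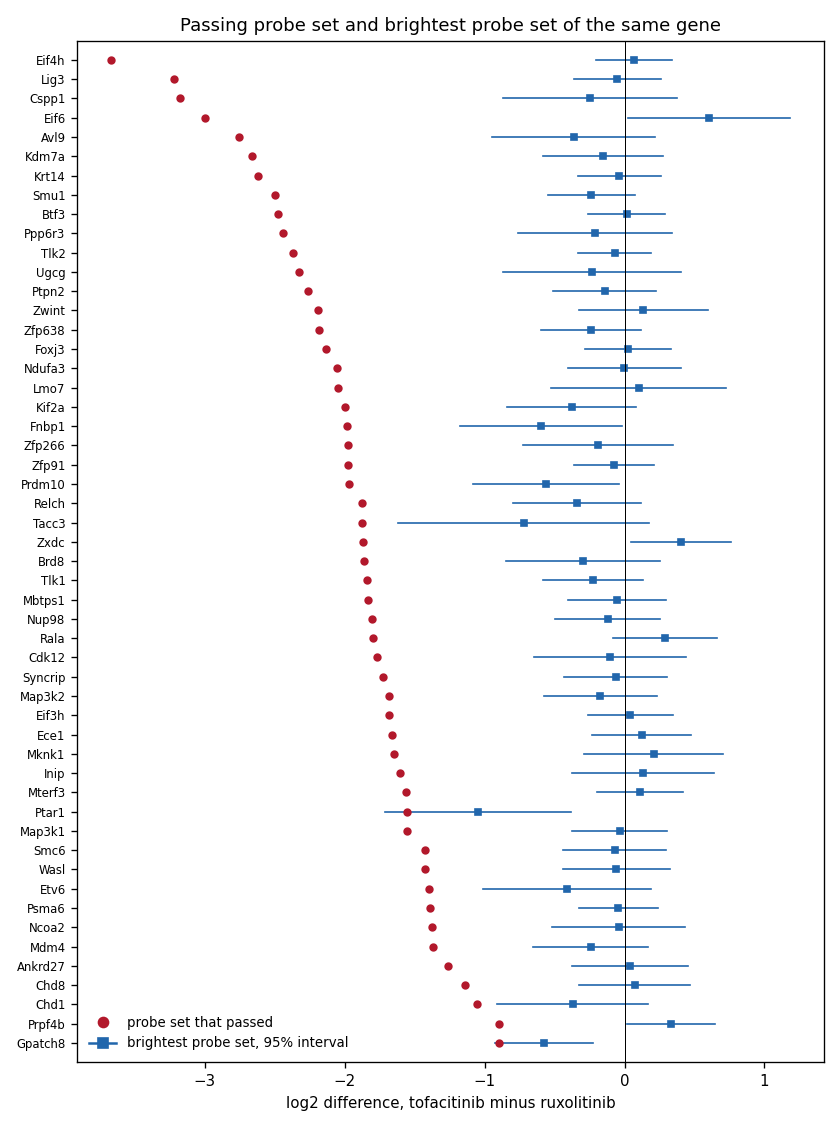
Difference, tofacitinib minus ruxolitinib, for the probe set that passed (red circles) and the brightest kept probe set of the same gene (blue squares, with 95% interval), in the 52 genes where these differ. The red points run from -0.90 to -3.67 and the blue points from -1.05 to 0.60.

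The difference between probe sets of a gene was tested directly. Of 14193 probe sets in genes with several kept, 103 differed from the rest of their gene (0.726%, limma diffSplice, adjusted p under 0.05), 69 lower and 34 higher, in 72 genes. Of the 30 genes with a higher one, 26 also had a lower one. The test takes probe sets of the same arrays as independent, so its p-values may be too small, and probe sets kept only through the ruxolitinib arrays are among them. In 38 of the 56 genes with a probe set that passed and several kept, that probe set was itself discordant. Because both tests use the same contrast, this count describes the same difference. In the remaining genes, Tacc3 and Mbtps1 among them, the probe set that passed was not discordant by this test. Zwint, a kinetochore protein, is an example of a gene whose passing probe set was discordant. Probe set 1444717_at stood at 8.21 and 7.87 after ruxolitinib and at 5.82, 5.93 and 5.88 after tofacitinib. It was lower than the other 5 probe sets of the gene by -2.36 (adjusted p = 4.74e-08).

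The 3 genes that passed when the brightest probe set was used were Rel, Cdk13 and Prmt6, an arginine methyltransferase of histones. Cdk13 stood at 10.20 and 9.33 after ruxolitinib and 7.71, 6.50 and 7.61 after tofacitinib, but its other kept probe set differed by 0.02 (95% interval -0.52 to 0.56). Prmt6 stood at 6.30 and 6.32 after ruxolitinib and 5.29, 4.76 and 5.05 after tofacitinib (-1.28 ± 0.20, SE), and its other probe set differed by -0.19. Averaging the kept probe sets of each gene gave 5 lower genes in limma, 1 of which, Rel, was among these 3. The gene count was 1 without ruxolitinib mouse 4, 9 without tofacitinib mouse 7 and 1 without tofacitinib mouse 9. Rel alone passed in all 5 fits that left out a drug array.

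No probe set was higher after tofacitinib at the threshold, and the smallest adjusted p was 0.0583. The 5 with the smallest p were Rpusd4, a pseudouridine synthase of mitochondria, at 1.13 ± 0.23 (SE), Cmtr2, an mRNA cap methyltransferase, at 0.94 ± 0.20, Tmprss11a, a membrane serine protease of epithelia, at 2.64 ± 0.57, Cyb561d1 at 0.87 ± 0.19 and Slc2a4rg-ps at 1.10 ± 0.24. Tmprss11a stood at 5.12 and 5.54 after ruxolitinib and at 7.87, 8.93 and 7.16 after tofacitinib, with no overlap. The vehicle arrays (6.08 and 6.99) lay between them and the day-0 arrays lower (1.62 to 3.73). Its 95% interval ran from 1.42 to 3.86 and its limma adjusted p was 0.0827.

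Feedback genes of the kinases were examined because both drugs act on that pathway. The promoters of Cish and Socs3 are shown with the STAT-type palindrome TTCNNNGAA in capitals, which reads the same on both strands, and that of Rel as the gene with the largest difference. They are RefSeq sequences of build GRCm38.p6, 250 bases before to 50 after the start site, at chr9:107296409-107296708 (+) for Cish, chr11:117969317-117969616 (-) for Socs3 and chr11:23770920-23771219 (-) for Rel.
Cish: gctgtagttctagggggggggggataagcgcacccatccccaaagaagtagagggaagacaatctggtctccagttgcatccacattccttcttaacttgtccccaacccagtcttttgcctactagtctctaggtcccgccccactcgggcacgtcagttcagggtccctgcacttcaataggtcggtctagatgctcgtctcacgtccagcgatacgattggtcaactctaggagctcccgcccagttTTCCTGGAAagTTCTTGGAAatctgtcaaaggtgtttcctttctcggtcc
Socs3: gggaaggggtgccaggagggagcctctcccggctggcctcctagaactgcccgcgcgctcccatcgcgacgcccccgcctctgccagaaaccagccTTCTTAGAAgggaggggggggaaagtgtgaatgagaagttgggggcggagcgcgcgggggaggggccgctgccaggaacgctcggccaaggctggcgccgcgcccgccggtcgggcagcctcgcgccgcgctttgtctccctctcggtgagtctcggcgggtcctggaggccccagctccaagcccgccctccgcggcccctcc
Rel: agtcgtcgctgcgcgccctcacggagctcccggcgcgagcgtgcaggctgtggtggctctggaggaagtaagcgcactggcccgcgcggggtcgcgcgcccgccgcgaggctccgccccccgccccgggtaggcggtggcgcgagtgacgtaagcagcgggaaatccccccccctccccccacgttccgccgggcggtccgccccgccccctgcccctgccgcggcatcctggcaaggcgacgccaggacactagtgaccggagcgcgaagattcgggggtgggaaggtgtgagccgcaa
The palindrome stood 2 times in the Cish window, 1 time in the Socs3 window and 0 times in the Rel window, and 8.3% of 32851 promoters of that length held it. Of the 57 genes, 45 matched a promoter, and 4 of these held it (8.89%, against 9.55% of 27025 genes).

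No kept probe set of Cish, the Socs genes or the Janus kinases passed. Over all kept probe sets 0.297% passed, so the lack of a call is near the background for so few probe sets. Cish, which binds cytokine receptors, stood at 6.36 and 6.81 after ruxolitinib and at 7.71, 7.99 and 6.05 after tofacitinib, so the groups overlapped, and differed by 0.60 ± 0.54 (SE, 95% interval -0.54 to 1.74). Socs3, an inhibitor of JAK activity, stood at 7.92 and 8.11 after ruxolitinib and at 8.36, 7.56 and 8.35 after tofacitinib in its brightest probe set (0.05 ± 0.35, interval -0.69 to 0.79). Socs2 differed by 0.48 ± 0.52 and 0.88 ± 0.53 in its 2 probe sets. Of the kinases, Jak1 differed by -0.14 ± 0.22 in its brightest probe set, Jak2 by -0.03 ± 0.14 and Tyk2 by -0.12 ± 0.25. Jak3 and Socs1 did not reach the level filter. Ptpn2, a phosphatase that removes phosphate from JAKs and STATs, was the only member of the feedback list with a probe set that passed. Probe set 1425197_at stood at 6.37 and 5.48 after ruxolitinib and at 3.77, 3.45 and 3.75 after tofacitinib (-2.26 ± 0.26, SE, limma adjusted p = 0.000495). The brightest probe set of Ptpn2 differed by -0.14 (interval -0.51 to 0.23). Probe set 1425197_at exceeded 4 in a single array without ruxolitinib, so it reached the level filter only with the ruxolitinib arrays.

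Across 12086 genes the median difference was 0.03 and the median absolute difference 0.19, against a median SE of 0.25. The 95% interval lay within 1 of 0 for 8525 genes (70.5%), and differences of at least 1 in size were seen in 127 genes, 55 higher and 72 lower. None of the 31 gene lists had a member that passed in the gene fit. The 20 JAK-STAT components had a median of 0.00 and the 26 feedback and target genes 0.06, with 0 members of either at an unadjusted p under 0.05, a share that is 5.67% over all genes, so 0 is near the background for lists of this size. With the mouse as a fixed block these medians were -0.13 and -0.17, so the sign of the feedback median changed. Interferon-stimulated genes, a readout of JAK signalling, had a median of -0.19 (-0.14 with the fixed block) and 21 of 29 lower, with Ifit1 at -1.14 ± 0.76 (SE) and Ifit2 at -0.79 ± 0.48. Of the 29, 0 had an unadjusted p under 0.05. The mean level of this list was 5.43 and 5.25 after ruxolitinib and 5.25, 5.11 and 5.16 after tofacitinib.

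Cell cycle genes had the lowest median of the lists with at least 5 genes tested, -0.41, and 34 of 38 were lower. Mcm3, a subunit of the replicative helicase, differed by -0.68 ± 0.26 (SE), Cdk1, the mitotic kinase, by -0.96 ± 0.59 and Mki67, a marker of dividing cells, by -0.40 ± 0.32. Their mean level was 8.38 and 7.46 after ruxolitinib and 8.28, 7.57 and 6.77 after tofacitinib, so the groups overlapped, and the lowest was tofacitinib mouse 9. The median was 0.06 without ruxolitinib mouse 4 and -0.02 without tofacitinib mouse 9, and it was -0.83 without ruxolitinib mouse 6 and -0.80 without tofacitinib mouse 7, so it depended on single arrays. With the mouse as a fixed block it was -0.61, with mouse 7 grouped as ruxolitinib -0.88, and the same difference between the arms at day 0 was 0.30. Among skeletal muscle genes 36 of 38 were higher, with a median of 0.22, and Actc1, a cardiac and fetal muscle actin, differed by 1.32 ± 0.54. The muscle list stood at 11.22 and 11.16 after ruxolitinib and at 11.12, 11.33 and 11.90 after tofacitinib, and its median was 0.05 without tofacitinib mouse 9 and 0.47 without tofacitinib mouse 7. It was 0.63 with the fixed block and 0.40 with mouse 7 grouped as ruxolitinib, and at day 0 it was -0.43. Endothelial markers had a median of 0.26 with 19 of 20 higher, while Lyve1, a lymphatic marker, went the other way (-0.69 ± 0.27). An unadjusted p under 0.05 in limma was reached by 1 gene in each of the cell cycle, muscle and endothelial lists, against 5.67% of all genes. Members of a list share the same arrays, so counts by direction are not independent. The endothelial median ran from 0.11 without tofacitinib mouse 8 to 0.56 without ruxolitinib mouse 6. It was 0.84 with the fixed block and 0.11 with mouse 7 grouped as ruxolitinib, and at day 0 it was -0.65. Basal keratinocyte markers, which mark the labelled tissue, had a median of -0.04 (-0.17 with the fixed block) and levels of 10.33 to 10.69 after ruxolitinib and 10.37 to 10.72 after tofacitinib. With the muscle mean of each array as a covariate, the median was -0.18 for cell cycle genes and -0.04 for endothelial markers. In that fit 59 probe sets were lower, 54 of them among the 73, and 3 were higher.

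**Figure D5:**
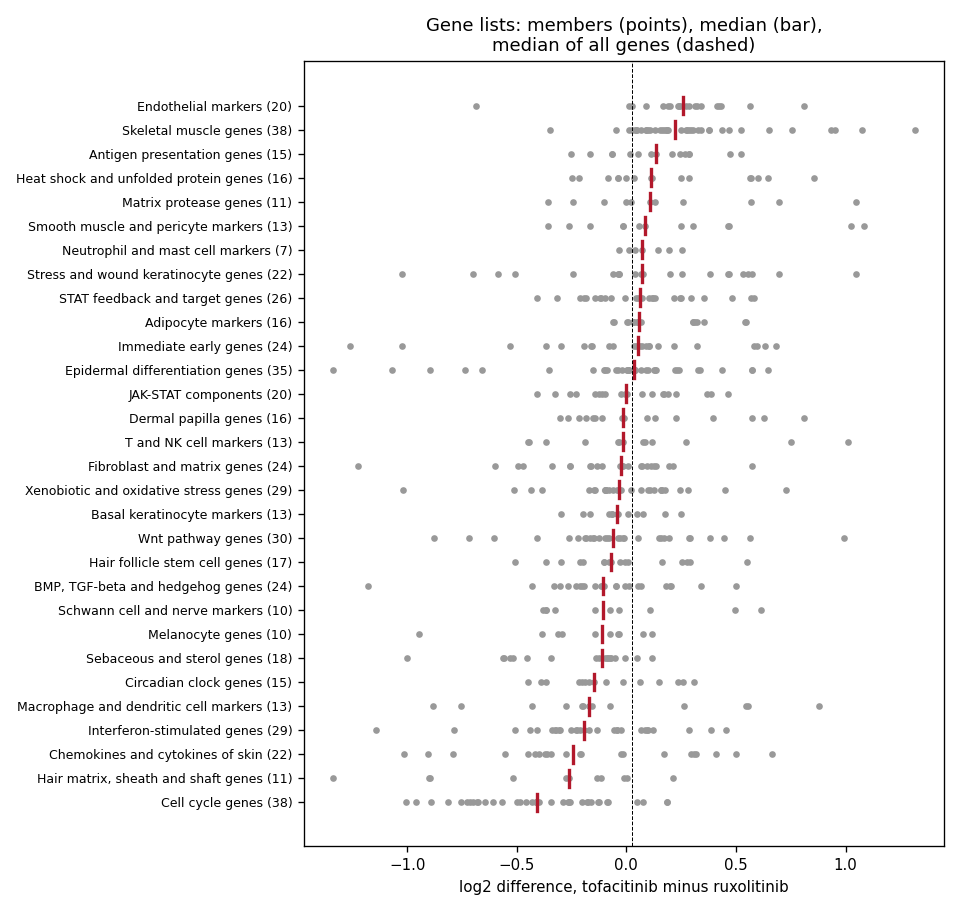
Difference, tofacitinib minus ruxolitinib, of the members of each gene list with at least 5 genes tested; points are genes, red bars list medians, the dashed line the median of all genes (0.03), and the number tested is in brackets. Cell cycle genes have the lowest median (-0.41) and endothelial markers the highest (0.26).

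The treatment arms were also compared before treatment, at day 0. Mice 7, 8 and 9 against mice 4, 5 and 6, of which mouse 5 has no day-5 array here, gave 0 probe sets at an adjusted p under 0.05 in limma (0%) and 3001 at an unadjusted p under 0.05 (12.2%). The latter count was 2345 with only mice 4 and 6 for ruxolitinib, the mice of the day-5 comparison, where it was 1758, and it was 1158 without mouse 8. The 73 probe sets had a median day-0 difference of 0.22, from -0.49 to 1.01, with 5 at an unadjusted p under 0.05, against a median of 0.05 over all kept probe sets. The drug arrays were also compared by correlation, without vehicle or day-0 correlations for scale. Correlations over probe sets, which are not independent, were 0.992 between the ruxolitinib arrays, 0.984 to 0.992 among tofacitinib and 0.984 to 0.993 between the drugs. Tofacitinib mouse 9 correlated least with the ruxolitinib arrays (mean 0.985, against 0.992 for mice 7 and 8). The drug arrays had medians of 3.80 to 3.88, and the difference between 3' and 5' probe sets of actin, a measure of RNA integrity, was 1.89 and 1.90 after ruxolitinib and 1.95, 1.87 and 1.72 after tofacitinib.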

How the data were processed

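Total RNA of whole dorsal skin was extracted with a column kit, amplified with a NuGEN Ovation kit and labelled with biotin, per the labels' protocols. The deposited log2 value of each probe set comes from GCRMA, per the submitters' processing notes, a method that corrects background, normalizes arrays and summarizes probes. Its version was not stated there. Of 45101 probe sets, 64 controls were left out, 35890 were in the platform's gene table and 34958 had 1 symbol. Symbols were checked by gene ID (34754 matched, 0 changed). Probe sets with a log2 value above 4 in at least 2 arrays were kept.

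Groups came from the titles. Group means of all 16 arrays were fitted in limma 3.58.1 (R 4.3.3) with the mouse as a random block (consensus correlation 0.0805 for probe sets and 0.0983 for genes), and p-values were adjusted by Benjamini-Hochberg over all features. An exact permutation test of 3 against 2 arrays cannot give a p under 0.1. Discordance was tested with diffSplice, probe sets taking the place of exons. Day-0 and day-5 arrays pair by mouse, per the labels; deviations from group means correlated above 0.1 in 2 of 7 pairs (-0.237 to 0.188). Scripts were tested on simulated data.

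Named probe sets, taken from those with 1 symbol that is not a predicted one, were the 10 largest falls among those that passed without overlap, the 5 smallest p where fewer than 5 passed, the 5 smallest discordance p in each direction, 3 members of each list described and the Janus kinase and Socs genes. The comparison, the lists and the rule were chosen with earlier results of these data known. Alternatives changed the block, the arrays, the filter, the normalization, the moderation, the threshold, the label of mouse 7 and each replicate. The number of arrays limits the precision.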

Additional observations from a re-analysis of the deposited data

Results flagged for a closer look

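Of 36 named probe sets tested among the 9 day-0 arrays, 3 had an array far from the others; chance flags about 1 group in 20. Eif4h probe set 1442942_at stood at 1.86 in mouse 5, against 1.47 to 1.67 in the others. Cspp1 probe set 1420340_at stood at 1.56 in mouse 5, against 1.95 to 2.20. Jak2 probe set 1421066_at stood at 10.8 in mouse 1, against 10.4 to 10.6.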

How the results depend on the processing

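Counts within 1.5 times the main count are not listed again. The number of lower probe sets was 0 with the mouse as a fixed replicate block, 0 on the 5 drug arrays, 0 on the 7 day-5 arrays, 20 with a filter at log2 6 and 19 with mouse 7 grouped as ruxolitinib; it ran from 34 to 122 when 1 array was left out. Higher probe sets numbered 2 with separate day-0 means, 3 with the muscle covariate, 6 at an adjusted p under 0.1 and 1 to 5 when 1 array was left out. Lower genes numbered 0 with the fixed replicate block, 0 on the 5 drug arrays, 1 on the 7 day-5 arrays, 5 with the mean of the kept probe sets and 1 to 9 when 1 array was left out, and higher genes 0 to 1. Discordant probe sets numbered 19 on the 7 day-5 arrays, 48 with the filter at 6 and 40 to 156 when 1 array was left out. Where a lone ruxolitinib array remained, it was assumed to vary like the other groups. Fewer arrays or degrees of freedom enter the block and the smaller fits by construction; the cause of the other shifts was not tested. The day-0 comparison gave 0 under all its alternatives in limma, with 1158 to 4304 at an unadjusted p under 0.05.

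Of 833 values of named probe sets under the alternatives, 721 stayed on their side of the threshold (values that never passed could change sign), 101 kept the direction but no longer passed, 11 newly passed and 0 that were called changed sign. Rel lay between -2.96 and -4.10 as a probe set.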
